A study of Mus musculus with 8 samples.

Results

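sgPik3cd cells are tumour-infiltrating OT-I T cells in which a guide RNA against Pik3cd was the only guide called. Pik3cd encodes p110δ, the catalytic subunit of phosphoinositide 3-kinase (PI3K) delta. The cells come from an in vivo CROP-seq screen, in which the guide and the transcriptome of each cell are read from the same droplet. A cell was a member when its barcode had exactly 1 called guide, that guide named Pik3cd, and mitochondrial genes took at most 10% of its unique molecular identifiers (UMIs, the counted mRNA molecules). The rule found 504 sgPik3cd cells among 23337 cells with 1 guide, or 2.16%, and they were compared with 2730 sgNT cells, which carried 1 of 34 nontargeting guides. There were 25, 28 and 213 sgPik3cd cells in the libraries of anti-PD-1 replicates 1, 2 and 3 and 238 in the IgG library. This order of the 4 libraries is kept below wherever 4 values are given. The members were chosen by their guide calls, and Pik3cd was selected on expression differences in these data, so cell numbers are a description.

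OT-I T cells are CD8+ T cells with a transgenic receptor for an ovalbumin peptide. All groups were made from Cas9 knock-in OT-I T cells that had received a lentiviral guide library against 83 metabolic genes and that carried CD90.1 as the marker of transduction. They were transferred 5 days after KPC_OVA cells, an ovalbumin-expressing mouse pancreatic ductal adenocarcinoma line, were injected orthotopically into Cas9 mice of 6 to 12 weeks of age. Treatment with anti-PD-1 or the IgG control antibody, at a stated dose of 10 mg/kg, began on the day of transfer, and CD90.1+ cells were sorted from the primary tumour 7 days later. There were 3 anti-PD-1 libraries and 1 IgG library, and the labels do not say how many mice each holds or that the 3 came from separate mice. All cells therefore share the Cas9 background, the tumour line and the receptor, and by design sgNT cells differ from sgPik3cd cells in the guide. Pik3cd had 1 guide with cells, so a property of this guide, or of the T cell clones that carried it, cannot be told apart from a property of the gene.

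PI3K delta is the class I PI3K through which T cell receptor, costimulatory and cytokine signals make phosphatidylinositol trisphosphate in lymphocytes. That lipid recruits the kinase AKT, which feeds mTOR complex 1 and keeps FOXO transcription factors out of the nucleus. FOXO1 is known to maintain Klf2, S1pr1 and Il7r in resting T cells, and PI3K activity is known to favour effector differentiation, glycolysis and growth.

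The guide sequences are shown because every comparison rests on 1 guide for Pik3cd and 1 for Pik3r1, the gene of the regulatory partner p85α. They are given 5′ to 3′ from the study's guide list, with the 12 bases nearest the protospacer-adjacent motif in capitals.
Pik3cd_gRNA1: gttgtgtgTTCAACTACCGG
Pik3r1_gRNA1: gagctttaTAAGGAGAGGCG
The Pik3r1 guide matched 1 of 7 reference transcripts of its gene exactly, on the antisense strand, and the match was followed by ggg, which is an NGG motif. The Pik3cd guide had no exact match in the 14 reference transcripts of Pik3cd, with at least 8 mismatches to each, and no site within 2 mismatches in any reference transcript. Of the 245 targeting guides in the list, 232 matched a transcript of their own gene exactly and 13 did not. A transcript search finds no site that lies in an intron or spans a splice junction, so where this guide cuts was not determined here. Whether the listed sequence is the one that was cloned was not determined either, and every sgPik3cd value below is that of cells called with this guide, with the loss of Pik3cd not shown. Pik3cd lies on chromosome 4 at 149649168 to 149702571 on the minus strand, and Pik3r1 on chromosome 13 at 101680563 to 101768217 on the minus strand (GRCm38).

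The sgPik3cd guide was common in 2 of the libraries. It took 0.980% of the cells with 1 guide in anti-PD-1 replicate 1 (exact Clopper-Pearson 95% interval 0.635 to 1.44%) and 1.07% in replicate 2 (0.712 to 1.54%). Its share was 3.26% in replicate 3 (2.84 to 3.72%) and 2.04% in IgG (1.79 to 2.32%). The intervals cover counting error only. The guide ranked 17 of 257 and 12 of 260 guides by number of cells in the first 2 libraries and first of 275 in each of the other two. Per 100 sgNT cells there were 7.74, 7.39, 28.7 and 18.5 sgPik3cd cells. The called share was close between replicates 1 and 2, whose titles share a stem. It was higher in replicate 3 than in IgG, so the libraries were not ordered by the antibody. The calls were not alike, though. In replicate 1, 23 barcodes held a UMI of this guide without a call of it, beside 29 called, against 0 in each other library. There every barcode with at least 1 UMI of the guide was called, so the share of replicate 1 is not strictly comparable. Pik3r1, also with 1 guide, had 22, 10, 32 and 46 cells.

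All 4 libraries were deeply read, with 142945121 to 155974184 gene UMIs each, and no sgPik3cd barcode occurred in more than 1 library. sgPik3cd cells were shallower than sgNT cells. Their median UMIs were 13183, 15022.5, 10290 and 5282.5, against 17583, 16966, 12302.5 and 6348 for sgNT. The log2 ratio was −0.28 ± 0.10 (mean ± SD, n = 4 libraries), lower in 4 of 4, and that of genes detected was −0.15 ± 0.05, also lower in 4 of 4. Both gave p = 0.13 in the two-sided exact sign-flip permutation test, the smallest that 4 libraries allow. The median number of guide UMIs behind a call was 4, 2, 2 and 2 in sgPik3cd cells and 4, 3, 3 and 3 in sgNT cells, and with at least 5 guide UMIs required 17 genes were called against sgNT. The defining CD8 T cell genes (Cd3e, Cd3d, Cd3g, Cd8a, Cd8b1 and Trac) summed to 5804 to 7383 CPM (UMI counts scaled to a common library total) in sgPik3cd and 5789 to 6362 in sgNT, with all 6 detected, so the cells carried the transcripts of their label. The red blood cell markers had no UMI in either class, Foxp3 had none in sgPik3cd, and 8 myeloid markers summed to 4.98 to 19.7 CPM against 8.77 to 14.1 CPM. The 5 fibroblast markers summed to 4.98, 0, 1.18 and 0.664 CPM in sgPik3cd and to at most 0.218 CPM in sgNT, with Dcn and Lum at 0 in both. The 6 tumour or epithelial markers summed to 9.97 to 27.6 CPM against 8.79 to 12.1 CPM.

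For expression, UMIs were summed over the cells of each target and library, and sgPik3cd was compared with sgNT within libraries by edgeR's quasi-likelihood test over all 83 targets at once. A gene was called at a Benjamini-Hochberg adjusted p under 0.05 over 10020 tested genes. Fold changes are log2 values of sgPik3cd over sgNT with their standard error. In sums, fewer cells of a type and less RNA per cell cannot be told apart. Nothing in the labels ties a library to an animal, so p-values measure the spread between these sums. Pik3cd was singled out on this contrast in the anti-PD-1 libraries and on Klf2 in IgG, so the adjusted p-values of sgPik3cd against sgNT set a difference against that spread and are a description, not an independent test.

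Pik3cd mRNA itself did not pass the test. It measured 62.3, 31.8, 66.2 and 58.4 CPM in sgPik3cd cells and 51.2, 44.4, 58.7 and 60.8 CPM in sgNT cells. The groups overlapped, and the fold change was 0.05 ± 0.13 (edgeR adjusted p = 0.962). Cas9 cuts change DNA and need not remove the mRNA, and the 3′ counting used here does not read the cut, so this is no check of the knockout. A loss of PI3K delta protein was therefore not measured in these cells.

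The comparison called 149 genes, of which 107 were higher and 42 lower in sgPik3cd cells. These are 1.49%, 1.07% and 0.419% of the tested genes, and 1099 genes had an unadjusted p under 0.05. Of the 107 higher genes, 80 were higher in all 4 libraries, and 40 of the 42 lower genes were lower in all 4. The same comparison without a test held for 8.1% (higher) and 11.2% (lower) of all tested genes. The 4 sgPik3cd sums lay wholly above the sgNT sums for 40 of the higher genes and wholly below for 29 of the lower ones, against 4.69% of all tested genes in either direction.

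The calls rested mainly on the 2 libraries with most sgPik3cd cells. In anti-PD-1 replicate 3 and IgG alone, 156 genes were called, 108 of them among the 149. In replicates 1 and 2 alone, with 53 sgPik3cd cells, edgeR called 0 of 8162 genes, with 398 at an unadjusted p under 0.05. There, 122 of the 127 genes called in all libraries that could be tested kept their direction. Leaving out replicate 3 gave 36 calls, 34 of them among the 149, and leaving out IgG gave 53, with 49 among them. Counting each nontargeting guide with at least 10 cells in a library as its own sum, which lets clones of single guides set the spread, gave 72 calls among 5533 genes (1.3%), 52 higher (0.94%) and 20 lower (0.361%), 68 of them among the 149.

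Klf2, one of the values on which Pik3cd was singled out and so given with no p against sgNT, is a zinc finger factor that maintains T cell quiescence and egress receptors and lies on chromosome 8 at 72319033 to 72321656 (GRCm38). It had 127, 63.5, 125 and 59.1 CPM in sgPik3cd cells and 42.6, 38.8, 17.7 and 19.3 CPM in sgNT cells. The groups did not overlap, and the fold change was 2.03 ± 0.28. The sgPik3cd sum exceeded 80 of 84 sums of single nontargeting guides in the same libraries. Klf3, a related factor, was at 7.475, 14.95, 18.9 and 11.95 CPM against 6.34, 6.16, 4.68 and 4.48 CPM, without overlap and higher by 1.62 ± 0.30 (edgeR adjusted p = 4.70e-05). S1pr1, the sphingosine-1-phosphate receptor that draws T cells out of tissue, was at 19.9, 9.34, 20.9 and 12.6 CPM against 11.5, 8.26, 8.60 and 5.02 CPM. Its groups overlapped because the sgNT sum of replicate 1 lay above the sgPik3cd sum of replicate 2, while within each library sgPik3cd was higher (1.19 ± 0.28, edgeR adjusted p = 0.00444). S1pr4, another receptor of the family, was higher by 0.55 ± 0.14 (edgeR adjusted p = 0.0205), with sgPik3cd at 47.3 to 55.1 CPM and sgNT at 30.9 to 42.0 CPM. Leaving out anti-PD-1 replicate 3 ended the calls of Klf3, S1pr1 and S1pr4, leaving out IgG those of S1pr1 and S1pr4, and leaving out replicate 1 that of S1pr4.

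Emb, the adhesion and transporter partner embigin, completed the 5 called genes of the lymphoid homing and egress list. It measured 254, 166, 188 and 174 CPM in sgPik3cd cells and 133, 122, 59.3 and 78.7 CPM in sgNT cells, without overlap (1.17 ± 0.17, edgeR adjusted p = 4.76e-08). Without Klf2, 4 of 14 tested members were called, all higher (28.6%, beside 1.07% of all tested genes), and with it 5 of 15 (33.3%). The list's median fold change was 0.05 without Klf2, beside −0.004 for all tested genes. The other 10 tested members did not pass. Ccr7, the lymph node chemokine receptor, was at 7.47 to 29.9 CPM against 3.73 to 33.2 CPM (−0.21 ± 0.42, edgeR adjusted p = 0.941).

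Of the FOXO target genes other than Klf2, 3 of 30 tested were called, all higher (10%, beside 1.07% of all tested genes): Klf3, S1pr1 and Lef1, the partner of TCF-1 in memory programmes. With Klf2 counted they were 4 of 31 (12.9%). Lef1 measured 39.9, 24.3, 39.8 and 21.9 CPM in sgPik3cd cells and 22.9, 21.8, 21.02 and 18.5 CPM in sgNT cells (0.66 ± 0.19, edgeR adjusted p = 0.0374). sgPik3cd was higher in every library, but its IgG sum lay below the sgNT sum of replicate 1. The median over the 30 genes was 0.17, and 7 were higher in all 4 libraries (23.3%, beside 8.1% of all tested genes). None of the 3 called genes was called by DESeq2, where the adjusted p was 0.132 for Klf3, 0.246 for S1pr1 and 0.121 for Lef1. Klf3, S1pr1 and Lef1 were also not called without anti-PD-1 replicate 3, and Lef1 was lost under 11 of 18 alternatives, leaving out replicate 1 or IgG among them. Il7r, the interleukin-7 receptor, was higher in 4 of 4 libraries without passing (0.66 ± 0.24, edgeR adjusted p = 0.185). Tcf7, the gene of TCF-1, was higher in 3 of 4 (0.80 ± 0.33, edgeR adjusted p = 0.287). Bcl2l11, which encodes the pro-death protein BIM, was at 0.34 ± 0.15 (edgeR adjusted p = 0.315), and Cited2, a transcriptional regulator, at 0.55 ± 0.16 (edgeR adjusted p = 0.0588). The factors themselves were not called: Foxo1 was at −0.09 ± 0.16, Foxo3 at −0.80 ± 0.29 (edgeR adjusted p = 0.185) and Foxo4 at 0.20 ± 0.41.

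Transcripts of the kinase pathway itself gave few calls. None of the 5 tested PI3K class I subunits was called, with a median of 0.05. The largest value was that of Pik3r5, a regulatory subunit of PI3K gamma, at 0.64 ± 0.22 (edgeR adjusted p = 0.158). None of 15 AKT and mTOR effectors was called, with a median of 0.04 and fold changes between −0.19 for Eif4ebp1 and 0.34 for Sgk1. Among 10 phosphatases and inhibitors of the pathway, Inpp4b, which removes a phosphate from the PI3K product phosphatidylinositol bisphosphate, was called higher. It was 1 of the 10 (10%, beside 1.07% of all tested genes). It measured 174, 120, 181 and 195 CPM against 106, 108, 123 and 147 CPM, higher in each library with overlapping groups (0.46 ± 0.12, edgeR adjusted p = 0.0194). Its call was lost without anti-PD-1 replicate 1, without replicate 3 and without IgG, with adjusted p from 0.108 to 0.354.

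Both costimulatory receptors of the list, which bind PI3K, were higher. Icos, the inducible costimulator, measured 267, 174, 200 and 178 CPM in sgPik3cd cells and 144, 136, 85.7 and 79.4 CPM in sgNT cells, without overlap (1.004 ± 0.16, edgeR adjusted p = 1.16e-06). Cd28 was at 344, 254, 205 and 179 CPM against 239, 208, 128 and 135 CPM (0.51 ± 0.11, edgeR adjusted p = 9.68e-04). For Cd28 the anti-PD-1 replicates 1 and 2 were high in both classes, so the groups overlapped, while each library had the same order, and its call was lost without replicate 3. These were 2 of 16 tested receptors and adaptors (12.5%, beside 1.07% of all tested genes called higher), with a median of 0.13. Cd3e was at 0.16 ± 0.07 and Lck at 0.16 ± 0.08 (edgeR adjusted p = 0.388 and 0.437). Outside this list, Trat1, which encodes an adaptor that stabilises the receptor complex, and Malt1 and Prkcq, both of the pathway from the receptor to NF-κB, were also called higher, at 2.12 ± 0.39, 0.77 ± 0.15 and 0.47 ± 0.13. Trat1 was higher in 3 of 4 libraries and the other two in 4, and these 3 genes were named after their values were seen. Leaving out anti-PD-1 replicate 1 ended the call of Malt1, and leaving out any 1 library ended that of Prkcq.

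Hif1a, the oxygen-regulated subunit of hypoxia-inducible factor 1 on chromosome 12 at 73901375 to 73947530 (GRCm38), had the smallest p of all genes. Its sums were 573, 348, 441 and 469 CPM in sgPik3cd cells and 281, 255, 263 and 261 CPM in sgNT cells. The groups did not overlap, sgPik3cd exceeded 83 of 84 sums of single nontargeting guides, and the fold change was 0.80 ± 0.11 (edgeR adjusted p = 3.13e-08). Genes that HIF-1 is known to induce were not called. Of the 31 tested hypoxia and glycolysis genes, Hif1a was the only one called (3.23%, beside 1.07% of all tested genes called higher), and the median was −0.05. Slc2a1, the glucose transporter GLUT1, was at −0.04 ± 0.17, Ldha, lactate dehydrogenase A, at −0.12 ± 0.10, Pgk1 at −0.17 ± 0.12 and Bnip3, of mitophagy, at −0.17 ± 0.22 (edgeR adjusted p = 0.698 to 0.976). By library the list's median log2 ratio, with 10 CPM added, was −0.37, 0.19, −0.08 and −0.03, so its sign was not the same in all libraries.

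The other genes of the highest rank had mixed roles. Trib2, a pseudokinase, was at 39.9, 22.4, 36.2 and 29.2 CPM against 16.3, 13.0, 12.4 and 11.2 CPM, without overlap (1.31 ± 0.18, edgeR adjusted p = 3.13e-08). Izumo1r, the folate receptor 4 of anergic and regulatory T cells, was at 34.9, 41.1, 78.0 and 122 CPM against 18.7, 24.1, 34.2 and 50.9 CPM (1.17 ± 0.17, edgeR adjusted p = 4.76e-08). Both classes had more Izumo1r in replicate 3 and IgG, which is why its groups overlapped. Cmah, which makes the sialic acid Neu5Gc, was higher by 1.39 ± 0.20 and Slamf6, a receptor of precursor exhausted cells, by 1.004 ± 0.17, both without overlap (edgeR adjusted p = 7.77e-08 and 7.14e-06). Slamf6 measured 74.8, 78.5, 81.9 and 93.6 CPM in sgPik3cd cells and 31.3 to 54.2 CPM in sgNT cells. Maf, a factor of IL-10 and exhaustion programmes, was low in both, at 2.49 to 12.6 CPM against 1.46 to 3.64 CPM (2.20 ± 0.38, edgeR adjusted p = 9.49e-06).

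Gdi2, a regulator of Rab GTPases, was higher by 0.51 ± 0.09, Ripor2 by 1.01 ± 0.19, and Gramd3 by 1.01 ± 0.19, each without overlap of groups (edgeR adjusted p = 9.70e-06, 7.11e-05 and 7.53e-05). Ripor2 and Gramd3 were not called without anti-PD-1 replicate 3. Gm8369, an unnamed gene model, was higher by 0.60 ± 0.11 with overlapping groups (edgeR adjusted p = 2.77e-05). Ighm, the immunoglobulin mu constant region, was at 147, 44.9, 112 and 108 CPM against 45.0, 41.6, 44.1 and 64.4 CPM (1.09 ± 0.17, edgeR adjusted p = 5.99e-07). It lay close to sgNT in replicate 2 and well above it in the others. The whole B or plasma cell list summed to 187, 71.0, 134 and 123 CPM against 50.0, 48.0, 52.4 and 78.3 CPM, mostly from Ighm. Its defining markers Ms4a1 and Cd79a had no UMI in either class, and 1 of the 4 tested members was called (25%, beside 1.07% of all tested genes called higher). Epcam, an epithelial gene, was also called higher, at 9.97, 9.34, 24.8 and 20.6 CPM against 5.85, 8.26, 6.98 and 10.4 CPM (1.32 ± 0.29, edgeR adjusted p = 0.00212), and not without replicate 3 or by DESeq2. Without cells holding at least 10 UMIs of the other cell type markers, which removed 51 sgPik3cd and 300 sgNT cells, 106 genes were called, 97 of them among the 149. When Trdc, Ikzf2 and Ighm, which many of these cells express, were left out of that limit, it removed 1 and 4 cells and 168 genes were called, 147 of them among the 149.

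Among inhibitory receptors the calls went both ways. Ctla4 was higher, at 618, 536, 253 and 181 CPM against 324, 327, 139 and 103 CPM (0.84 ± 0.16, edgeR adjusted p = 9.48e-05). Anti-PD-1 replicates 1 and 2 were high in both classes, so the groups overlapped, and sgPik3cd was above sgNT in each library. Cd244a, the SLAM family receptor 2B4 on chromosome 1 at 171559193 to 171609746 (GRCm38), had the smallest p among lower genes. It was at 4.98, 7.47, 10.2 and 6.64 CPM against 15.6, 11.9, 37.1 and 24.8 CPM, without overlap (−1.73 ± 0.28, edgeR adjusted p = 2.13e-06), and was not called without replicate 3. Pdcd1, which encodes PD-1, was at 0.16 ± 0.10, Havcr2, which encodes TIM-3, at 0.03 ± 0.13, and Lag3 at 0.38 ± 0.14 (edgeR adjusted p = 0.612, 0.975 and 0.164). These are 1 higher and 1 lower of 9 tested (11.1% each, beside 1.07% higher and 0.419% lower of all tested genes), with a median of 0.03. None of 16 effector and exhaustion factors was called, with a median of 0.08. Zeb2, a factor of terminal effector cells, was lower in 4 of 4 libraries at −0.62 ± 0.20 (edgeR adjusted p = 0.0894).

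Klrc2, the activating receptor NKG2C, was at 67.3, 93.4, 49.2 and 30.5 CPM against 122, 109, 73.0 and 84.2 CPM (−0.74 ± 0.16, edgeR adjusted p = 0.00134). sgPik3cd was lower in each library, and the groups overlapped because its sum in replicate 2 lay above the sgNT sums of replicate 3 and IgG. Klrc1, Klre1 and Klra5, chosen after their values were seen, were also called, at −0.56 ± 0.14, −0.75 ± 0.21 and −1.59 ± 0.44 (edgeR adjusted p = 0.0114, 0.0334 and 0.0325), and so was Fcer1g, the Fc receptor gamma chain, at −1.88 ± 0.53 (edgeR adjusted p = 0.0368). Klrc1, Klre1, Klra5 and Fcer1g were each lost without anti-PD-1 replicate 3 and without IgG, Fcer1g also without replicate 1, and Klrc2 without IgG. The first 4 were also lost with each nontargeting guide as its own sum and in the largest cluster, and Klre1, Klra5 and Fcer1g with DESeq2. Klrc1 and Klrc2 are close copies, so how reads were split between them is uncertain. Lat2, a linker adaptor of lymphocytes, was lower by −1.10 ± 0.20, and Cd72, a lectin-like coreceptor, by −1.28 ± 0.26 (edgeR adjusted p = 2.77e-05 and 3.50e-04). AA467197, whose product is known as NMES1, was at 7.48, 11.2, 44.9 and 41.8 CPM against 48.6, 70.2, 150 and 115 CPM, without overlap (−1.83 ± 0.36, edgeR adjusted p = 1.77e-04). The sgPik3cd value lay below 83 of 84 sums of single nontargeting guides, and the call was lost without replicate 3.

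Other lower genes named by rank were Gm36723 (−1.43 ± 0.24), Filip1 (−1.48 ± 0.29), Tmem273 (−1.23 ± 0.25), Srgap3, a RAC regulator (−1.03 ± 0.22), and Phlda1 (−1.12 ± 0.25). Their edgeR adjusted p ran from 6.61e-06 to 0.00161. Gm36723 was at 12.5, 28.0, 41.4 and 30.5 CPM against 44.5, 45.7, 119 and 80.2 CPM, and the sgPik3cd sums were the lower ones throughout. Without anti-PD-1 replicate 3 Gm36723, Filip1, Tmem273 and Phlda1 were not called, and without IgG Tmem273 and Srgap3 were not.

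Effector molecules had a lower median of −0.47 over 20 tested genes, and 11 were lower in all 4 libraries (55%, beside 11.2% of all tested genes), but few passed. Gzma, the tryptase granzyme A, was at 299, 348, 852 and 327 CPM against 1187, 785, 2730 and 1314 CPM, lower in each library (−1.74 ± 0.56, edgeR adjusted p = 0.0940). Ifng was at 202, 196, 277 and 356 CPM against 526, 502, 503 and 467 CPM (−0.88 ± 0.55, edgeR adjusted p = 0.617), without overlap of the 4 sums, yet its spread over single nontargeting guides was wide, with 42 of 84 sums above sgPik3cd and 42 below. Gzmd and Gzme passed. Gzmd was at 0, 0, 1.58 and 1.33 CPM against 32.0, 71.0, 70.2 and 46.8 CPM, and Gzme at 0, 0, 1.97 and 0 CPM against 29.1, 35.4, 36.1 and 36.9 CPM (edgeR adjusted p = 0.0437 and 0.00284). Of the 84 sums of single nontargeting guides, 27 lay above sgPik3cd and 41 below for Gzmd, and 24 above and 20 below for Gzme. Neither gene passed with each guide as its own sum (edgeR adjusted p = 0.192 and 0.193). These granzymes are near-identical copies whose reads may be split uncertainly. Il2 was called higher at 0, 0, 5.91 and 35.9 CPM against 2.44, 3.64, 2.87 and 5.24 CPM (1.98 ± 0.50, edgeR adjusted p = 0.0125), with no UMI in replicates 1 and 2 and most of its level in IgG. Il2 was also not called by DESeq2, in the largest cluster or with all other targeting guides as control. Leaving out IgG ended the calls of Il2, Gzme and Gzmd, and leaving out any anti-PD-1 library also ended that of Gzmd. Prf1, perforin, was at −0.38 ± 0.25 (edgeR adjusted p = 0.648) and Ccl5 at 0.48 ± 0.21 (edgeR adjusted p = 0.329).

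All 23 G1/S genes had a negative fold change with a median of −0.24, and 12 were lower in all 4 libraries (52.2%, beside 11.2% of all tested genes). Hells, a chromatin remodeller of replicating cells, was the called one (4.35%, beside 0.419% of all tested genes called lower). It was at 37.4, 54.2, 73.2 and 59.8 CPM against 85.0, 87.2, 92.2 and 94.7 CPM (−0.58 ± 0.16, edgeR adjusted p = 0.0311). All 19 G2/M genes were negative as well, with a median of −0.41, and 11 were lower in all 4 libraries (57.9%, beside 11.2%). Cenpe, a kinetochore motor, was the called one (5.26%, beside 0.419%). Cenpe was at 34.9, 28.0, 41.0 and 59.8 CPM against 71.3, 68.1, 70.8 and 80.9 CPM (−0.79 ± 0.22, edgeR adjusted p = 0.0383). Hells and Cenpe were each lost under 12 of 18 alternatives, which include leaving out any 1 library, DESeq2 (adjusted p = 0.0587 and 0.140) and each nontargeting guide as its own sum. Members of one list are turned on together in the same cells, so their shared sign is a description. The medians by library, with 10 CPM added, were −0.50, −0.03, −0.17 and −0.29 for G1/S and −0.60, −0.02, −0.51 and −0.21 for G2/M, near 0 in replicate 2. None of 20 cholesterol genes (median −0.18), 12 ATF4 and one-carbon genes (−0.24), 10 G1 cyclins and CDK inhibitors (−0.19, with 4 positive and 6 negative) or 85 ribosomal protein genes (0.03) was called.

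Cell states were compared after integrating the 4 libraries by canonical correlation and clustering without the 149 called genes and the targeted genes. The 8 clusters are numbered from 0 by size. The largest, cluster 0 with 7349 cells, was led by Prf1, Bnip3, Ccl5, Kdm5b and Aldoc. It was left unnamed because its 10 leading genes held 1 marker of a fixed state, Ctla4, which is itself a called gene. It took 44.0, 39.3, 44.6 and 42.4% of sgPik3cd cells and 26.3, 28.8, 41.5 and 27.4% of sgNT cells. The difference was 11.6 ± 6.4 percentage points (mean ± SD, n = 4 libraries), higher in 4 of 4, with the smallest part in anti-PD-1 replicate 3. It depended on the resolution. At 0.5 the cluster that held 56.4% of these cells differed by 5.69 ± 7.35 points, higher in 2 of 4 libraries. Another cluster at 0.5, of 2652 cells led by Bnip3, Prf1, H2-Ab1 and Mgarp, differed by 6.17 ± 3.48 points, higher in 4 of 4. At 0.2 the matching cluster differed by 10.5 ± 9.4 points, higher in 3 of 4. In IgG, 32 of 34 single nontargeting guides had a lower share than sgPik3cd, and in replicate 3 it was 21 of 32.

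The G1/S-like and G2/M-like clusters held a smaller share of sgPik3cd than of sgNT cells in each library. The G1/S-like cluster held 8, 7.14, 7.98 and 13.4% of sgPik3cd cells and 19.5, 17.4, 13.7 and 18.7% of sgNT cells, a difference of −8.2 ± 3.2 points that was negative in 4 of 4 libraries. The G2/M-like cluster held 4, 0, 4.23 and 5.88% against 7.74, 8.18, 7.68 and 7.93% (−4.4 ± 2.7 points, negative in 4 of 4). The 0 in replicate 2 stands for 0 of 28 cells, which allows a share of up to 10.7%. Cluster 2, led by replication histone genes, was higher in 2 libraries and lower in the other two (−0.29 ± 5.47 points).

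Cluster 5, unnamed and led by Gzmf, Gzmc, Spp1 and Fcer1g, held 16.0, 10.7, 13.6 and 7.56% against 8.05, 4.49, 10.5 and 6.45% (4.6 ± 3.1 points, higher in 4 of 4). At resolution 0.5 it split, and 65.8% of its cells fell in an effector memory-like cluster led by Klf2, S1pr1 and Isg15, itself a cluster named partly by called genes, which differed by 5.69 ± 1.18 points, higher in 4 of 4. The separate cluster of 432 cells led by Gzmf, Gzmd and Gzmc differed by −1.84 ± 0.84 points, lower in 4 of 4. The precursor exhausted-like cluster, led by Tcf7 and Ccr7, held 0, 0, 3.29 and 2.52% against 4.33, 5.28, 2.43 and 6.61% (−3.2 ± 2.8 points, higher in 1 of 4), from 13 sgPik3cd cells in all. Its name rests on Tcf7 and Slamf6, and Slamf6 is a called gene. The effector-like cluster, led by Xcl1 and Ifng, differed by 0.87 ± 1.80 points. Each of the two-sided exact sign-flip permutation tests over 4 libraries gave p = 0.13 for clusters 0, 1, 4, 5 and 7, p = 0.25 for the precursor exhausted-like cluster, p = 0.5 for the effector-like one and p = 1 for cluster 2. With 4 libraries no cluster could pass the threshold in this design.

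Single genes were also compared inside clusters. In the 13 pairs of cluster and library with at least 10 cells of each class, Icos, Izumo1r, Slamf6, Ighm and Gm8369 were higher in sgPik3cd cells in 13, as were 0.21% of all 10020 tested genes. Klf2, Hif1a, Emb, Gdi2 and Klf3 were higher in 12, and 0.938% of all tested genes in at least 12. Of the other higher genes, Trib2, Cmah, Ripor2 and Gramd3 were higher in 11, Maf in 9 and lower in 4, and S1pr1 in 8 and lower in 5. Klrc2 and Gzma were lower in 13 (0.25% of all tested genes) and Cd244a in 12 (1.22% in at least 12), while Cd72 was lower in 11 and Srgap3 in 10. These genes were picked on sums of the same cells. In cluster 0 Hif1a was at 660, 405, 574 and 561 CPM in sgPik3cd cells against 308, 291, 325 and 319 CPM in sgNT cells. Klf2 was uneven over clusters, with 730 CPM in the 29 sgPik3cd cells of cluster 5 in anti-PD-1 replicate 3, against 55.6 CPM in sgNT, and 41.6 against 8.10 CPM in cluster 0 of that library. Within cluster 0 alone, edgeR called 68 of 6854 genes (0.992%), 35 higher (0.511%) and 33 lower (0.481%), of which 47 were among the 149. These pairs share their cells' libraries and are given as a description.

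Whether the difference varied with the antibody was tested by an interaction term. edgeR called 0 of 10020 genes, with 332 at an unadjusted p under 0.05, and DESeq2 called 0. IgG has a single library, so its spread was taken from the other sums, and this does not show that the effects were alike. sgPik3cd had been singled out with its anti-PD-1 calls, and Klf2 in IgG, already known, so most IgG values had no part in the choice. Of the 38 genes higher in the 3 anti-PD-1 libraries alone (0.403% of 9419, among 53 calls or 0.563%), 37 were also higher in IgG, and of the 15 lower ones (0.159%) 13 were lower there. Klf2, whose IgG value was used in the choice, is counted among both the 38 and the 37. Among all tested genes 46.1% were higher and 52.9% lower in IgG.

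Cells with several called guides are cells the rule left out. Those with Pik3cd among their guides numbered 4, 12, 85 and 107, and those without numbered 421, 311, 1125 and 2018; the 4 in anti-PD-1 replicate 1 were too few for a sum. A barcode with several guides can be a cell with 2 integrations or 2 cells in a droplet. edgeR called 8 of 11666 genes (0.0686%), 3 of them higher (0.0257%) and 5 lower (0.0429%). Klf2 was at 79.4, 37.9 and 38.5 CPM with Pik3cd among the guides in anti-PD-1 replicates 2 and 3 and IgG, against 38.8, 19.1 and 17.5 CPM without (0.996 ± 0.14, edgeR adjusted p = 0.0100). Trib2 was at 30.1, 23.7 and 25.9 CPM against 11.7, 11.95 and 12.4 CPM (1.03 ± 0.17, edgeR adjusted p = 0.0479), and Ctla4 was higher by 0.62 ± 0.10 (edgeR adjusted p = 0.0479). Ifng was lower by −1.05 ± 0.09, Gzma by −0.68 ± 0.08 and Gzmf by −4.26 ± 0.27 (edgeR adjusted p = 4.75e-05, 0.00246 and 2.79e-06). None of these calls held without anti-PD-1 replicate 3 or without IgG, where edgeR called 0 genes, with 357 and 424 at an unadjusted p under 0.05.

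The other called genes of that comparison, Krt7 and Krt8, are keratins of the epithelial tumour and were lower. Hif1a was at 342, 355 and 319 CPM against 273, 240 and 261 CPM, higher in 3 of 3 libraries without passing (0.36 ± 0.09, edgeR adjusted p = 0.356). Of the 148 genes called in single-guide cells and tested here, 135 had the same sign, 96 of 106 higher and 39 of 42 lower genes, and 56 of them had an unadjusted p under 0.05. Among all genes tested in both, 58.7% had the same sign. These barcodes came from the same libraries as the single-guide cells, so a clone of T cells could be in both.

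Pik3r1, whose product stabilises p110δ, was set beside it. With 110 sgPik3r1 cells, edgeR called 0 of 10020 genes, with 486 at an unadjusted p under 0.05, and DESeq2 called 2. These cells numbered 22, 10, 32 and 46 by library, so 0 calls does not show that sgPik3r1 had no effect. Klf2 in sgPik3r1 cells was at 62.0, 56.3, 4.80 and 20.7 CPM, with a fold change over sgNT of 0.15 ± 0.51, and Hif1a at 269, 230, 309 and 293 CPM, with 0.05 ± 0.13. The median for sgPik3r1 over sgNT was −0.41 for effector molecules and 0.22 for G2/M genes, beside −0.47 and −0.41 for sgPik3cd. Both comparisons share the sgNT sums, and the direct contrast uses the sgPik3cd sums on which Pik3cd was singled out, so its calls too are a description. In it Klf2 was at 1.88 ± 0.47 for sgPik3cd over sgPik3r1 and was not called (edgeR adjusted p = 0.0574). It called 12 genes (0.12%), 9 higher in sgPik3cd (0.0898%) and 3 lower (0.0299%). The higher ones were Hif1a (0.75 ± 0.13), AU020206, Ctla4 (1.01 ± 0.20), Rplp0, Rilpl2, Gimap3, Gdi2, Emb and Dnajc15. Filip1, Batf3 and Trgv2 were lower. Without anti-PD-1 replicate 1 the contrast left 2 genes, without replicate 2 it gave 23, without replicate 3 it left 1 and without IgG 4.

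Promoters were searched for 2 letter patterns in RefSeq windows of 300 bases from 250 before to 50 after each gene's start (GRCm38.p6), on both strands. TGTTTAC, the core bound by FOXO factors, was in 3.65% of 32851 promoters and in 252 of 7889 tested genes (3.19%). It was in 6 of the 82 higher genes with a window (7.32%), which were Casp4, Gimap3, Hdac7, Sdcbp2, Spryd4 and Thap3, and in 0 of 38 lower genes. ACGTG, the core of hypoxia response elements, was in 30.4% of tested genes, in 20 of 82 higher genes (24.4%), Hif1a, Ctla4 and Trib2 among them, and in 11 of 38 lower genes (28.9%). A match is a run of letters and not a bound site. The window of Hdac7, a class IIa histone deacetylase, is shown to let a reader see such a match, and was chosen after the values were seen. It lies at chr15:97831718-97832017 on the minus strand, with the match, on the opposite strand to the letters given, in capitals.
Hdac7 window: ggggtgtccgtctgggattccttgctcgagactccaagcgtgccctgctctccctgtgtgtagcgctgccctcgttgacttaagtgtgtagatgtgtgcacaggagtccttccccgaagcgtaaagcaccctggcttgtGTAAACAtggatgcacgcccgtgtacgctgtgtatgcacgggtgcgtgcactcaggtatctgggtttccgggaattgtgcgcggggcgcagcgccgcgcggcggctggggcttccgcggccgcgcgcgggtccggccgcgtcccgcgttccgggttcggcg
The other windows of this gene held no match. Hdac7 mRNA was at 92.2, 74.7, 66.2 and 76.4 CPM in sgPik3cd cells and 53.1, 44.5, 50.8 and 51.5 CPM in sgNT cells, without overlap (0.59 ± 0.12, edgeR adjusted p = 6.36e-04). Its call was lost in anti-PD-1 replicate 3 and IgG alone (edgeR adjusted p = 0.0641), in the largest cluster and with at least 5 guide UMIs. The window of Klf2, at chr8:72318812-72319111 on the plus strand, held neither run of letters, which says nothing of the factor.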

How the data were processed

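Per the labels, the authors counted UMIs per gene and guide with Cell Ranger 3.1.0 on mm10, and the deposited matrices hold raw UMI counts for 4 libraries, each with its deposited guide calls. Seurat and R 3.6.3 are also listed in the submitters' processing notes. Members and gene lists were chosen with earlier results of these data known.

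Cells with 1 guide and at most 10% mitochondrial UMIs were kept, with no limit on UMIs and no doublet caller. The study's own UMI limits per sample are not given in the sources used here. Counts were summed per target and library with at least 10 cells, giving 313 sums. edgeR 4.0.16 fitted all targets and sgNT with the library as a block (TMM, filterByExpr, quasi-likelihood F test with one negative binomial dispersion from the most expressed genes and 226 residual degrees of freedom). A test on simulated data of 9545 genes recovered 77.8% of 2-fold and 97.8% of 4-fold changes, with 4 false calls of 161. It used 1 profile per library and a common dispersion of 0.00432 from the sgPik3cd and sgNT sums. Variation between guides or clones was not simulated, so these rates do not measure the error in the data. Named genes were Pik3cd, then the 15 higher and 10 lower called genes with the smallest p and 1 direction in 4 libraries, then list members that passed and up to 4 others. A few list members are counted with their lists but not reported here by name. Pairing comes from the shared library, which is the block.

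Clusters came from Seurat 5.3.0 (2000 features, 30 canonical components, 15 principal components, resolution 0.3), without the 149 called genes and all targeted genes. A state name needed the most markers among 10 leading genes, a rule adjusted after the clusters were seen. Guides were matched to GENCODE transcripts in GRCm38 and promoters come from RefSeq. Alternatives included DESeq2 1.42.0, other size factors, no filter, other cell limits and controls, and leaving out each library.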

Additional observations from a re-analysis of the deposited data

Results flagged for a closer look

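The median log2 ratio (10 CPM added) of the PI3K phosphatases and inhibitors was 0.073 in IgG and −0.064, −0.096 and −0.015 in anti-PD-1 replicates 1, 2 and 3, so its sign differed between the antibodies. That of the AKT and mTOR effectors was 0.063 in IgG and −0.031, −0.017 and −0.002 in the anti-PD-1 libraries. The difference was not tested, and the SD over the 4 libraries was 0.073 for the first list and 0.042 for the second.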

How the results depend on the processing

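The 149 calls of sgPik3cd against sgNT became 89 with DESeq2 (71 higher, 73 of them among the 149), 72 with each nontargeting guide as its own sum, 456 with all other targeting guides as control, 17 with at least 5 guide UMIs, 68 in the largest cluster and 0 in anti-PD-1 replicates 1 and 2 alone. Leaving out 1 library gave 36 to 171 calls, 36 without anti-PD-1 replicate 3 and 53 without IgG. RLE size factors gave 166, no filter 174, only the sgPik3cd and sgNT sums 222. The genes called in all libraries kept their direction wherever tested, except 5 of 127 in replicates 1 and 2 alone and 1 of 149 with the other targeting guides as control. Il2 reversed to −4.16 in replicates 1 and 2 alone. Without the replicate block, that is the library, 19 genes were called for sgPik3cd, all higher and all among the 149, 0 for sgPik3r1, 1 for sgPik3cd against sgPik3r1 and 0 for cells with several guides.

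For sgPik3r1, DESeq2 gave 2 calls, the limit of 3 median absolute deviations on UMIs gave 1, and leaving out 1 library gave 0 to 1. sgPik3cd against sgPik3r1 gave 1 to 23 without 1 library, and the antibody interaction 0 to 1. Cells with several guides gave 5 calls with DESeq2, 16 with exactly 2 guides, and 0 to 21 without 1 library. The share difference of cluster 2 ran from −2.65 to 1.30 points without 1 library (0.983 without anti-PD-1 replicate 1) and was 0.216 at resolution 0.5. The effector-like difference became −2.18 with called genes left in. The precursor exhausted-like difference became 2.81 at resolution 0.2, where 97.1% of its cells fell in 1 cluster with 63.3% of cluster 5. The limit on other cell type markers without Trdc, Ikzf2 and Ighm was added after the data were seen. The cluster 0 difference was 5.69 points at resolution 0.5, where a separate cluster led by Bnip3 and Prf1 had 6.17, and 10.5 at 0.2. Replicates 1 and 2 held 53 sgPik3cd cells, though more UMIs per cell than the other libraries. The causes were not tested.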
